A study of Mus musculus with 7 samples.

Results

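The genes described here make, import, store and export cholesterol, and were read in mouse cells cultured from sorted haematopoietic stem cells. They were chosen by gene symbol: 30 named genes, all present among the 52224 genes of the deposited table, of which 18 encode enzymes of cholesterol synthesis, 5 belong to the SREBP control system, 1 acts in uptake, 2 in transport and storage, and 4 in efflux and the LXR response. Stem cells (CD48-CD150+LSK) were sorted from bone marrow of C57BL/6J mice of the wild type and kept in culture for 48 h. The solvent DMSO was given in 3 libraries, gemcitabine at 0.5 µM (Gem) in 2 and hydroxyurea at 100 µM (HU) in 2. Gemcitabine is a nucleoside analogue that blocks DNA synthesis, and hydroxyurea inhibits ribonucleotide reductase, which makes the building blocks of DNA. The labels give no ages and do not tell whether each library of a group had its own mouse or culture; p-values therefore reflect the spread among these 7 libraries alone, and that spread may be technical. The surface markers describe the cells at the sort, before culture.

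Cells build cholesterol from acetyl-CoA through mevalonate, squalene and lanosterol. When membrane sterol is low, SCAP carries the SREBP transcription factors from the endoplasmic reticulum to the Golgi, where they are cut and released to switch on synthesis and uptake genes; INSIG proteins hold SCAP back when sterol is plentiful. Oxidised sterols activate the LXR receptors, which switch on the exporters ABCA1 and ABCG1 and MYLIP, the ubiquitin ligase that removes lipoprotein receptors from the cell surface. In blood stem and progenitor cells, export through ABCA1 and ABCG1 is known for restraining proliferation.

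Levels are FPKM, fragments normalised to gene length and to the mapped fragments of the library, so they can be compared between genes per length. A gene was tested when it had at least 1 FPKM in at least 2 libraries, which left 13865 genes and 29 of the 30 members. Tests are limma's on log2(FPKM + 1) over all tested genes, with Benjamini-Hochberg adjustment, and a gene rose or fell where the adjusted p was below 0.05; a log2 fold change on this scale understates the change of genes at a few FPKM. The whole table was lower in the drug libraries: summed FPKM lay between 818775 and 832979 for DMSO, 703016 and 729258 for Gem, and 647760 and 651315 for HU, and the median log2 fold change of all tested genes was -0.25 in Gem and -0.30 in HU. Each comparison is therefore also given after trimmed-mean scaling, which brings those medians to 0.013 and 0.024. On the deposited scale 23.2% of tested genes fell and 1.50% rose in Gem, and 35.5% fell and 4.46% rose in HU. On the scaled values 0.440% fell and 0.483% rose in Gem, against 5.14% and 4.77% in HU. DMSO libraries had 21251 to 23047 genes above 0, Gem libraries 27887 to 29158 and HU libraries 29687 to 31153. Of 1766 receptor genes of the olfactory and vomeronasal families, 373 to 400, 955 to 1031 and 1182 to 1204 were above 0. The part of these differences in the results was not tested.

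Marker genes of blood cells were read in the same libraries. The sum of the 7 stem cell markers was 87.7 to 115.7 FPKM over DMSO libraries, 61.3 to 73.8 over Gem libraries and 61.8 to 65.1 over HU libraries. By the test 2 of 5 tested markers, Kit and Ly6a, were lower in each drug, where 23.2% of all tested genes fell in Gem and 35.5% in HU. After scaling the sums were 75.8 to 103.4, 67.6 to 78.0 and 70.8 to 72.8, so that Gem overlapped DMSO. On that scale 1 marker, Ly6a, was lower in HU, where 5.14% of all tested genes fell, and none in Gem (limma, 1 of 5 at an unadjusted p below 0.05). Most of the scaled DMSO sum came from Kit (34.7 to 43.1), Ly6a (29.7 to 43.2) and Procr (8.72 to 15.2). Hlf, Mecom and Slamf1 were at most 3.18 in any library on scaled values. The stem cell marker Fgd5 was at 0 to 0.05 FPKM in DMSO and at most 0.5 in any library. The 10 monocyte and macrophage markers summed to 22741 to 31868, 35157 to 36411 and 33221 to 37255 FPKM, and nearly all of that sum was the lysozyme gene Lyz2 (21717.58 to 30761.19, 34347.28 to 35554.42 and 32468.87 to 36422.26). The other markers did not follow it. On the deposited scale 2 of the 10 fell in Gem and 4 in HU, against 23.2% and 35.5% of all tested genes, and none rose. Csf1r, Adgre1, Cd68 and Cd14 were lower in every drug library than in every DMSO library. Of all tested genes 50.4% were so in Gem and 53.9% in HU. After scaling none of the 10 fell in either drug, and Lyz2 alone rose, in HU (0.80, limma adjusted p = 0.0481). The 5 megakaryocyte markers summed to 1717 to 2780, 1684 to 1781 and 1339 to 1536 FPKM, the 5 mast cell and basophil markers to 281 to 1356, 220 to 402 and 199 to 204, and the 8 neutrophil markers to 9840 to 16305, 11002 to 13792 and 10280 to 10607. On the deposited scale 2 of the 5 megakaryocyte and 2 of the 5 mast cell and basophil markers fell in HU, where 35.5% of all tested genes fell. After scaling 0 and 1 did, where 5.14% of all tested genes fell. The 6 erythroid markers had sums of 41.9 to 70.2 FPKM over DMSO libraries, 17.9 to 27.2 over Gem and 23.7 to 24.4 over HU, lying below all of DMSO in both drugs. The scaled sums did so too (37.5 to 60.6, 19.8 to 28.8 and 26.5 to 27.99). Of 4 tested erythroid markers 2 fell in Gem (Hba-a2 and Hbb-bt) and 1 in HU (Hbb-bt) as deposited, against 23.2% and 35.5% of all tested genes. After scaling 1 fell in each (Hba-a2 in Gem, Hbb-bt in HU), against 0.440% and 5.14% of all tested genes. These were the same libraries in which the members were lower. Lymphoid markers summed to at most 13.5 FPKM and stromal and endothelial ones to at most 7.49 in any library. Fewer cells of a type and less RNA per cell cannot be told apart in these bulk libraries, and the part of cell composition in the gene results was not tested.

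Start-site sequence was available for 25 of the 30 members, as 34 windows of 250 bases before an annotated start (RefSeq, GRCm38.p6). The windows were searched on both strands for the SREBP site TCACNCCAC, the CCAAT box and the GC box GGGCGG, none of which contains another. CCAAT, a box bound by NF-Y, stood in 61.8% of the members' windows and in 33.8% of all 32851 windows of the same length. Among the synthesis genes 14 of 15 had it in at least 1 window, and 0 of the 3 efflux and LXR genes did. GGGCGG stood in 70.6% of the members' windows and 32.7% of all windows. The SREBP site stood in 1 member window, that of Hmgcs1 (2.94%, against 1.05% of all windows). The last 150 bases before the start are shown for 4 synthesis genes: Hmgcs1 for its SREBP site, Mvk and Mvd for their repeated CCAAT boxes, and Ebp because it is the synthesis gene whose adjusted p stayed below 0.05 after scaling in HU. Capitals mark the SREBP site and CCAAT or, on the other strand, ATTGG. These are matches of letters in a window, not measured binding.
Hmgcs1 (chr13:119690201-119690350, plus strand): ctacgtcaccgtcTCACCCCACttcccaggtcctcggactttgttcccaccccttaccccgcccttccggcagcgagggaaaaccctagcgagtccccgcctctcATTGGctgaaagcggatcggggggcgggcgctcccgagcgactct
Mvk (chr5:114444119-114444268, plus strand): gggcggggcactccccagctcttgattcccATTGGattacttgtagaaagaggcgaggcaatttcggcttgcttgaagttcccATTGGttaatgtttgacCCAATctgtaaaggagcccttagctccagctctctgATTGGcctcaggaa
Mvd (chr8:122443423-122443572, minus strand): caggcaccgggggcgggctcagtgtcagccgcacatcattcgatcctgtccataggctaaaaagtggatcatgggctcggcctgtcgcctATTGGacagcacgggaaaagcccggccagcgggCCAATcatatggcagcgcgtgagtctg
Ebp (chrX:8193513-8193662, minus strand): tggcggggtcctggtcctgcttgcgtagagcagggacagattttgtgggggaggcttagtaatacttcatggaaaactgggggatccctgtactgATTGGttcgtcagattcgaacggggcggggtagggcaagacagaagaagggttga
Hmgcs1 thus carries the SREBP letters and 1 CCAAT box in this stretch, Mvd 2 CCAAT boxes, Mvk 4 and Ebp 1.

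In DMSO libraries the pathway was expressed throughout, from 212 FPKM for Fdps to 5.64 for Hsd17b7 among the synthesis genes. Fdps, which makes farnesyl diphosphate, stood highest (212 ± 5.54, SD, n = 3), and the next was the storage enzyme gene Soat1 (124 ± 3.60), then Msmo1 (81.9 ± 2.48) and Hmgcs1 (56.6 ± 2.36). Lss, Hsd17b7 and Abca1 stood lowest, at 6.20 ± 0.711, 5.64 ± 1.10 and 0.500 ± 0.192 FPKM. In this order 21 of 29 neighbouring pairs had overlapping ranges over the 3 libraries. The coefficient of variation in DMSO was under 10% for 20 of the 30 genes.

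On the deposited scale 10 of the 18 synthesis genes fell in Gem and 11 in HU, against 23.2% and 35.5% of all tested genes. None of the 18 rose in either drug. The median log2 fold change of the 18 was -0.36 in Gem and -0.37 in HU, against -0.25 and -0.30 for all tested genes. After scaling, none fell or rose in Gem by limma's adjusted p (2 were lower and 1 higher at an unadjusted p below 0.05). In HU 1 of the 18, Ebp, fell, against 5.14% of all tested genes. The scaled medians were -0.070 and -0.014, against 0.013 and 0.024 for all tested genes. Summed over the 18 genes, synthesis as deposited ran from 677.7 to 699.9 FPKM over DMSO libraries, from 512.9 to 528.8 over Gem and from 463.7 to 530.5 over HU. The scaled sums ran from 585.9 to 625.4 over DMSO, from 559.1 to 566.4 over Gem and from 531.6 to 593.6 over HU, so that HU overlapped DMSO.

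**Figure D1:**
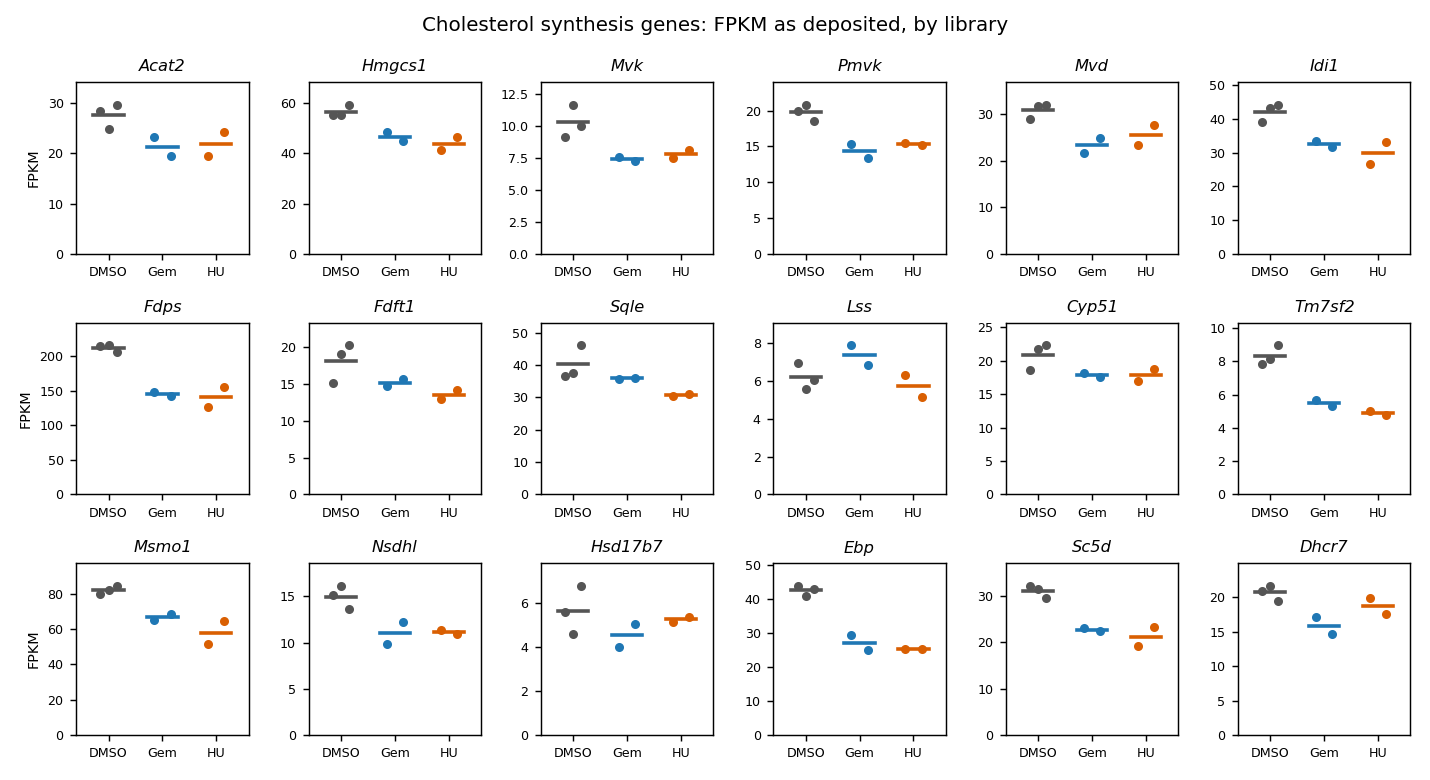
FPKM as deposited (vertical axis, from 0) of the 18 cholesterol synthesis genes in each DMSO, Gem and HU library (points), with the group mean as a line. Fdps falls from about 212 FPKM in DMSO to 145.7 in Gem and 140.8 in HU, while Lss is the gene whose Gem mean lies above its DMSO mean.

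The mevalonate arm runs from acetyl-CoA to farnesyl diphosphate and held 7 of the genes. As deposited 5 of these fell in Gem and 4 in HU, against 23.2% and 35.5% of all tested genes. After scaling none passed in either drug (1 was lower in each at limma's unadjusted p below 0.05). The scaled medians of the 7 were -0.10 in Gem and 0.0029 in HU, against 0.013 and 0.024 for all tested genes. Fdps was at 214.09, 215.86 and 205.5 FPKM in DMSO, 148.64 and 142.7 in Gem and 126.42 and 155.18 in HU. Every drug library lay below every DMSO library, and the log2 fold change was -0.54 (SE 0.094, limma adjusted p = 0.0102) in Gem and -0.59 (SE 0.094, limma adjusted p = 0.00342) in HU. Scaled, the changes were -0.23 and -0.22, with limma adjusted p of 0.223 and 0.150. Exons of Fdps share 26.7% of their length with the same-strand gene model Gm43738, so reads could be split between them. Idi1, whose product isomerises isopentenyl diphosphate, was at 39.16, 43.2 and 44.21 FPKM in DMSO, 33.49 and 31.53 in Gem and 26.52 and 33.12 in HU. It fell in both drugs without overlap, to 77.1% of the DMSO mean in Gem and 70.7% in HU. Hmgcs1, which makes HMG-CoA, was at 55.31, 55.17 and 59.32 FPKM in DMSO, 48.4 and 44.88 in Gem and 41.11 and 46.54 in HU. Its drug libraries also lay below all of DMSO as deposited, but only the HU difference passed (limma adjusted p = 0.0135, against 0.0527 in Gem). Scaled, Hmgcs1 stood at 47.7 to 53.0 in DMSO, 51.2 and 49.6 in Gem and 47.1 and 52.1 in HU. Both drugs then overlapped DMSO, and neither difference passed.

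The kinases Mvk and Pmvk and the decarboxylase Mvd turn mevalonate into isopentenyl diphosphate. Mvk was at 9.13, 11.65 and 10.01 FPKM in DMSO, 7.54 and 7.23 in Gem and 7.45 and 8.09 in HU. Pmvk was at 19.98, 20.82 and 18.6 FPKM in DMSO, 15.3 and 13.44 in Gem and 15.43 and 15.19 in HU. Mvd was at 28.95, 31.79 and 32.01 FPKM in DMSO, 21.57 and 24.96 in Gem and 23.39 and 27.62 in HU. As deposited all drug libraries were below all DMSO libraries for the 3 genes, as for 50.4% of all tested genes in Gem and 53.9% in HU. The Gem difference passed for each (limma adjusted p of 0.0484, 0.0191 and 0.0355), and in HU it passed for Pmvk (limma adjusted p = 0.0256). On scaled values Mvk and Mvd overlapped DMSO in both drugs and Pmvk in HU, and no difference passed. Acat2, an acetyl-CoA acetyltransferase at the pathway's entry, was at 28.47, 24.74 and 29.67 FPKM in DMSO, 23.23 and 19.47 in Gem and 19.45 and 24.15 in HU, and passed in neither drug (limma adjusted p of 0.0867 and 0.0832).

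The 3 genes from farnesyl diphosphate to lanosterol gave no call in Gem and 2 in HU as deposited, where 23.2% and 35.5% of all tested genes fell. After scaling none of the 3 passed in either drug (1 was higher in Gem at limma's unadjusted p below 0.05). Fdft1, squalene synthase, was at 15.2, 19.1 and 20.27 FPKM in DMSO, 14.67 and 15.62 in Gem and 12.91 and 14.17 in HU, and 18.3% of its exon length lies opposite exons of the lysosomal protease gene Ctsb. Sqle, squalene epoxidase, was at 36.73, 37.66 and 46.13 FPKM in DMSO, 35.8 and 36.02 in Gem and 30.33 and 30.97 in HU. HU libraries lay below all DMSO libraries for both genes, as for 53.9% of all tested genes. Both genes fell in HU, by 0.39 and 0.37 on the log2 scale (limma adjusted p of 0.0491 and 0.0292), whereas a Gem library overlapped DMSO for Fdft1. Lss, lanosterol synthase, was at 6.97, 5.57 and 6.05 FPKM in DMSO, 7.89 and 6.86 in Gem and 6.31 and 5.13 in HU. It was the member with a positive difference in Gem as deposited, at 0.22 (limma adjusted p = 0.298), and 0.48 after scaling (limma adjusted p = 0.159). One Gem library overlapped DMSO as deposited, and on scaled values both lay above all of DMSO, at 8.34 and 7.58 against 4.81 to 6.03. Neither difference passed the threshold.

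The 8 genes that turn lanosterol into cholesterol held 5 that fell in Gem and 5 in HU as deposited, against 23.2% and 35.5% of all tested genes. After scaling 0 fell in Gem and 1, Ebp, in HU, against 0.440% and 5.14% of all tested genes. Ebp, the sterol isomerase, was at 43.94, 40.99 and 42.91 FPKM in DMSO, 29.35 and 24.94 in Gem and 25.33 and 25.31 in HU. All drug libraries lay far below the narrow DMSO range, at 63.7% of the DMSO mean in Gem and 59.4% in HU. The log2 fold change was -0.64 (SE 0.090, limma adjusted p = 0.00699) in Gem and -0.73 (SE 0.090, limma adjusted p = 0.00163) in HU. After scaling Ebp stood at 35.4 to 38.3 in DMSO, 31.0 and 27.5 in Gem and 29.0 and 28.3 in HU. The groups still did not overlap, and the scaled change was -0.34 in Gem (limma adjusted p = 0.109) and -0.37 in HU (limma adjusted p = 0.0357). The scaled call in HU was kept when a Gem library was left out and lost without DMSO 1, DMSO 2, DMSO 3, HU 1 or HU 2 (limma adjusted p of up to 0.166, with changes from -0.40 to -0.34). Fdps, Tm7sf2 and Sc5d also lay below every DMSO library in HU on scaled values, without passing the test.

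Tm7sf2, one of the sterol C14 reductases, was at 7.83, 8.15 and 8.98 FPKM in DMSO, 5.66 and 5.3 in Gem and 5 and 4.75 in HU. It fell as deposited by 0.52 and 0.66 on the log2 scale (limma adjusted p of 0.0198 and 0.00502) without overlap, and 12.1% of its exon length is shared with the same-strand gene Vps51. Sc5d, a sterol desaturase, was at 32.18, 31.47 and 29.61 FPKM in DMSO, 23.13 and 22.31 in Gem and 19.14 and 23.27 in HU. Msmo1, the methylsterol oxidase, was at 79.47, 81.93 and 84.42 FPKM in DMSO, 64.89 and 68.19 in Gem and 51.6 and 64.21 in HU. Sc5d fell in both drugs and Msmo1 in HU (limma adjusted p = 0.00736, against 0.0655 in Gem), again with every drug library below every DMSO library. Nsdhl, which removes the C4 carboxyl group, was at 15.14, 16.15 and 13.6 FPKM in DMSO, 9.86 and 12.2 in Gem and 11.39 and 10.95 in HU, and fell in both drugs (limma adjusted p of 0.0469 and 0.0398). Dhcr7, which makes cholesterol from 7-dehydrocholesterol, was at 20.94, 21.71 and 19.52 FPKM in DMSO, 17.18 and 14.65 in Gem and 19.85 and 17.65 in HU. It fell in Gem (limma adjusted p = 0.0439), while in HU its libraries overlapped DMSO (limma adjusted p = 0.332). Cyp51, lanosterol demethylase, ranged from 18.62 to 22.33 FPKM in DMSO and from 16.93 to 18.8 over the drug libraries, and Hsd17b7, the sterol ketoreductase, from 4.58 to 6.77 and from 3.97 to 5.35. Neither passed in Gem or HU.

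These deposited-scale calls depended on single libraries. Of the 15 members that fell in Gem, 0 still fell without Gem 2, where 13 genes of the whole table were called, and 4 did without DMSO 1, 4 without DMSO 2 and 5 without Gem 1. Without Gem 2, Fdps, Ebp, Insig2 and Abcg1 had limma adjusted p of 0.0842, 0.0593, 0.0826 and 0.0864, and each stayed called in the other 6 fits with a library left out. Of the 17 that fell in HU, 6 did so in all 7 such fits: Fdps, Tm7sf2, Msmo1, Ebp, Sc5d and Abcg1. The lowest HU count was 6, without HU 1, and it was 11 without HU 2, DMSO 1 or DMSO 2.

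Of the 5 SREBP control genes 2 fell in Gem and 3 in HU as deposited, against 23.2% and 35.5% of all tested genes. Their median log2 fold change was -0.30 in both drugs, against -0.25 and -0.30 for all tested genes. After scaling 0 passed in either (in Gem 1 was lower at limma's unadjusted p below 0.05, in HU 0). Srebf2, the transcription factor that mainly drives cholesterol genes, was at 29.09, 27.32 and 28.22 FPKM in DMSO, 22.66 and 22.91 in Gem and 21.25 and 24.25 in HU. It fell without overlap by 0.30 on the log2 scale in Gem (limma adjusted p = 0.0444) and by 0.30 in HU (limma adjusted p = 0.0292), close to the median of all genes, and the scaled values were -0.0014 and 0.059. Insig2 was at 14.45, 14.21 and 14.73 FPKM in DMSO, 10.03 and 9.51 in Gem and 11.33 and 10.77 in HU, the tightest DMSO group of the 30 genes. It fell in both (-0.52, limma adjusted p = 0.0101 in Gem; -0.36, limma adjusted p = 0.0180 in HU), and its scaled difference was -0.24 in Gem (limma adjusted p = 0.248) and -0.014 in HU. Insig1 was at 26.56, 28.58 and 25.03 FPKM in DMSO, 23.3 and 20.75 in Gem and 19.94 and 21.12 in HU, and fell in HU (limma adjusted p = 0.0205, against 0.0773 in Gem). Srebf1, the paralogue linked mainly to fatty acid genes, was at 14.86, 16.59 and 14.3 FPKM in DMSO, 12.47 and 12.04 in Gem and 13.42 and 11 in HU. Scap was at 12.6, 9.99 and 10.68 FPKM in DMSO, 7.92 and 9.52 in Gem and 10.24 and 9.02 in HU. Srebf1 and Scap did not pass in either drug (limma adjusted p of 0.0757 to 0.324). The protein cleavage that activates SREBP is not measured by RNA levels.

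**Figure D2:**
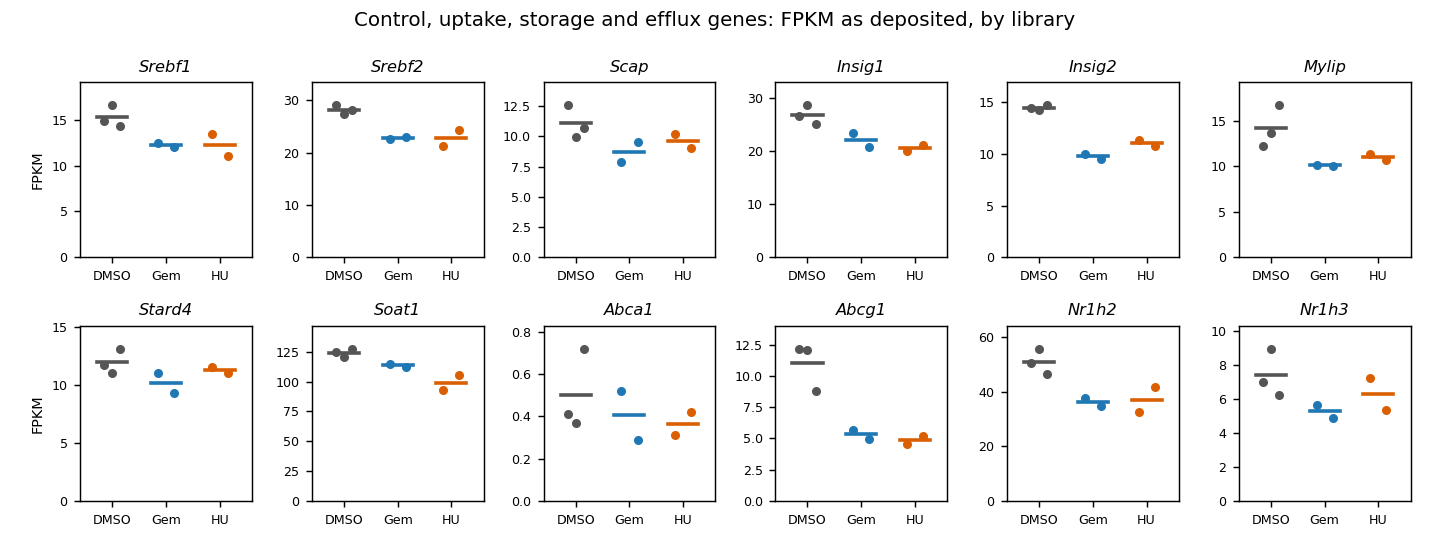
FPKM as deposited (vertical axis, from 0) of the SREBP control, uptake, transport, storage, efflux and LXR genes in each library (points), with group means as lines. Abcg1 stands at 8.83 to 12.18 FPKM in DMSO and at 4.59 to 5.67 over the drug libraries, and Abca1 stays below 1 FPKM.

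Uptake was represented by Mylip. It was at 12.27, 13.69 and 16.73 FPKM in DMSO, 10.14 and 10.08 in Gem and 11.33 and 10.64 in HU. Both drug groups lay below all DMSO libraries; the gene fell in Gem (-0.44, limma adjusted p = 0.0491) and did not pass in HU (-0.34, limma adjusted p = 0.0843). The scaled values were -0.16 and 0.010, and neither passed. Its Gem call was lost in each of the 7 fits that left out a library.

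Storage was represented by Soat1, which esterifies cholesterol for lipid droplets, and intracellular transport by the sterol carrier gene Stard4. Soat1 was at 124.8, 120.29 and 127.4 FPKM in DMSO, 114.62 and 112.63 in Gem and 92.64 and 105.16 in HU. All drug libraries were below DMSO, the HU ones lowest, and the gene fell in HU (-0.33, limma adjusted p = 0.0132) but not in Gem (-0.13, limma adjusted p = 0.255); scaled, it stood at 0.18 in Gem and 0.043 in HU, and neither passed. Stard4 was at 11.74, 11.06 and 13.12 FPKM in DMSO, 11 and 9.27 in Gem and 11.57 and 11.04 in HU. HU overlapped DMSO, and neither difference passed.

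The furthest change of the tested members was that of 1 efflux gene, Abcg1. Of the 3 tested efflux and LXR genes 2 fell in each drug as deposited, against 23.2% of all tested genes in Gem and 35.5% in HU. After scaling none passed in Gem (1 was lower at limma's unadjusted p below 0.05). In HU 1 fell, where 5.14% of all tested genes did. Abcg1, which exports cholesterol to high-density lipoprotein, was at 12.18, 12.08 and 8.83 FPKM in DMSO, 5.67 and 4.98 in Gem and 4.59 and 5.22 in HU. No drug library reached any DMSO library, and the DMSO group was spread, with DMSO 3 well below the others. The Gem mean was 48.3% of DMSO and the HU mean 44.5%. On the log2 scale Abcg1 changed by -0.92 in Gem (SE 0.16, limma adjusted p = 0.0107) and by -1.02 in HU (SE 0.16, limma adjusted p = 0.00357). Only 1.65% of tested genes in Gem and 2.65% in HU had a lower fold change. After scaling the changes were -0.65 (limma adjusted p = 0.0955) in Gem and -0.69 (limma adjusted p = 0.0314) in HU, so Abcg1 and Ebp were the members that still fell in HU.

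With libraries left out, the scaled Abcg1 change in HU ranged from -0.81 to -0.62 and was called without DMSO 3 (limma adjusted p = 0.0156) and lost without each of the other 6 libraries. In Gem it ranged from -0.77 to -0.58 and was called only without DMSO 3 (limma adjusted p = 0.0406). DMSO 3 was also the DMSO library with the lowest megakaryocyte, mast cell and basophil, neutrophil and erythroid marker sums, at 1717, 281, 9840 and 41.9 FPKM. Those sums were 2696, 607, 16305 and 51.2 FPKM in DMSO 1 and 2780, 1356, 15407 and 70.2 in DMSO 2. Their part in the Abcg1 result was not tested.

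The other efflux and LXR genes were the exporter gene Abca1 and the receptor genes Nr1h2 and Nr1h3. Abca1 was at 0.41, 0.37 and 0.72 FPKM in DMSO, 0.52 and 0.29 in Gem and 0.31 and 0.42 in HU; it stayed below the level needed for a test, and its groups overlapped. Nr1h2, which encodes LXR beta, was at 50.52, 55.74 and 46.58 FPKM in DMSO, 37.77 and 34.69 in Gem and 32.5 and 41.62 in HU. It fell as deposited (-0.48 and -0.46, limma adjusted p of 0.0310 and 0.0240) without overlap and did not pass after scaling (-0.18 and -0.090); a processed pseudogene of Nr1h2 is annotated, so its reads are uncertain. Nr1h3, which encodes LXR alpha, was at 6.99, 8.93 and 6.23 FPKM in DMSO, 5.66 and 4.87 in Gem and 7.23 and 5.33 in HU. Its HU libraries overlapped DMSO, and neither difference passed.

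**Figure D3:**
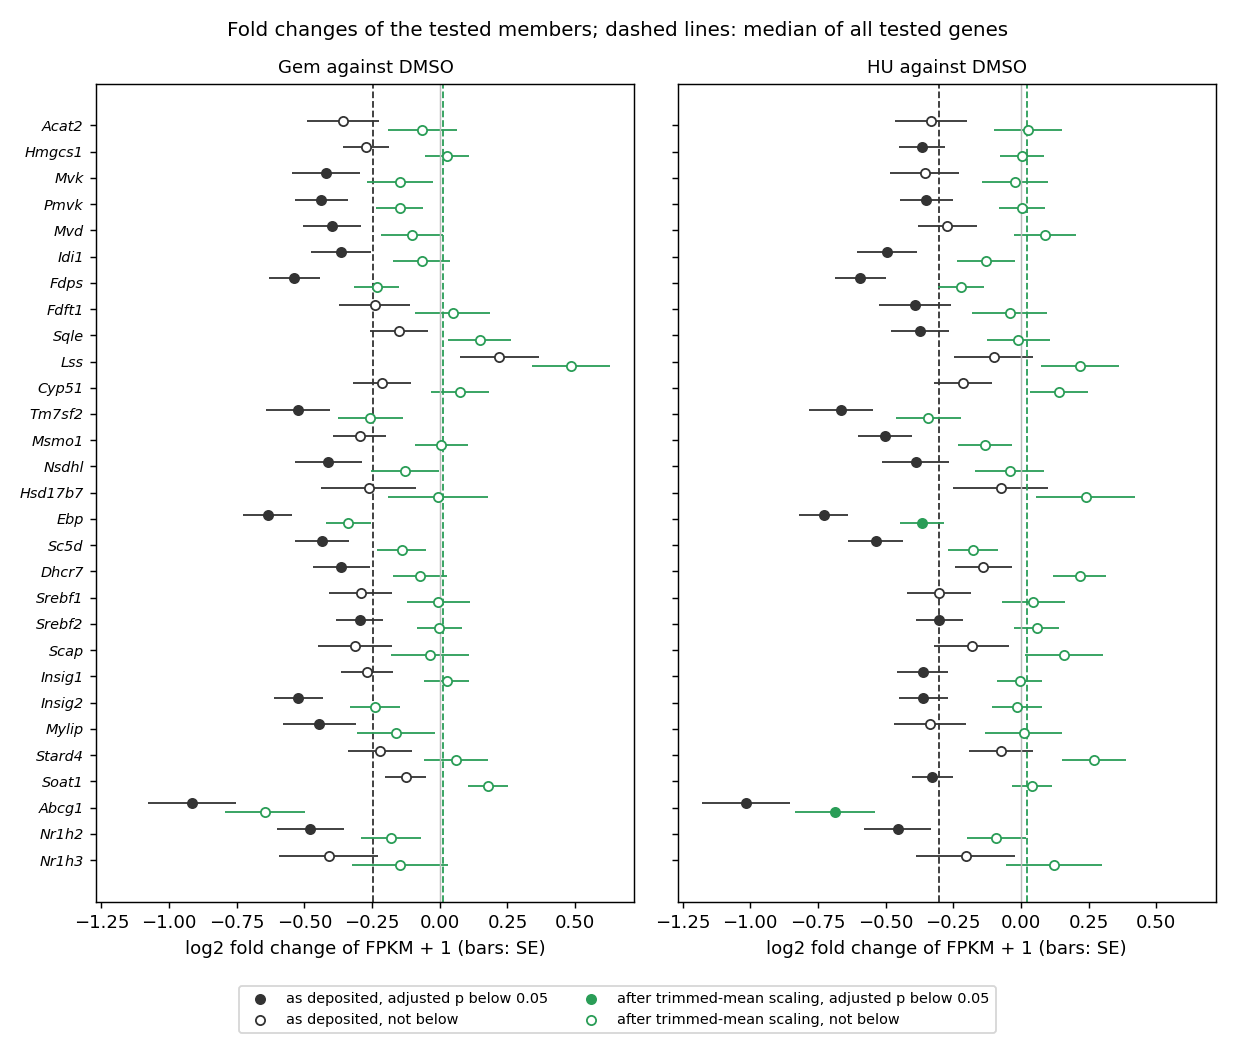
Log2 fold change of FPKM + 1 against DMSO (horizontal axis; bars are the SE of the limma fit) for the 29 tested members in Gem (left) and HU (right), as deposited in dark and after trimmed-mean scaling in green; filled points have an adjusted p below 0.05. As deposited 15 points in Gem and 17 in HU are filled, on the left of 0 like the dashed medians of all tested genes (-0.25 and -0.30), and after scaling Ebp and Abcg1 are the filled points, in HU.

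Over the 29 tested members, 15 fell in Gem and 17 in HU as deposited, against 23.2% and 35.5% of all tested genes. No member rose, and the median log2 fold change was -0.36 in both, against -0.25 and -0.30 for all tested genes. After scaling, 0 fell or rose in Gem by limma's adjusted p (4 were lower and 2 higher at an unadjusted p below 0.05). In HU 2 fell. Of all tested genes 0.440% fell in Gem and 5.14% in HU. The scaled medians of the members were -0.067 and 0.0029, against 0.013 and 0.024 for all tested genes. Every Gem library lay below every DMSO library for 26 of the 29 as deposited, where 50.4% of all tested genes did so, and every HU library for 22, against 53.9%. On scaled values the counts were 8 in Gem, against 17.1% of all tested genes, and 5 in HU, against 19.4%.

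**Figure D4:**
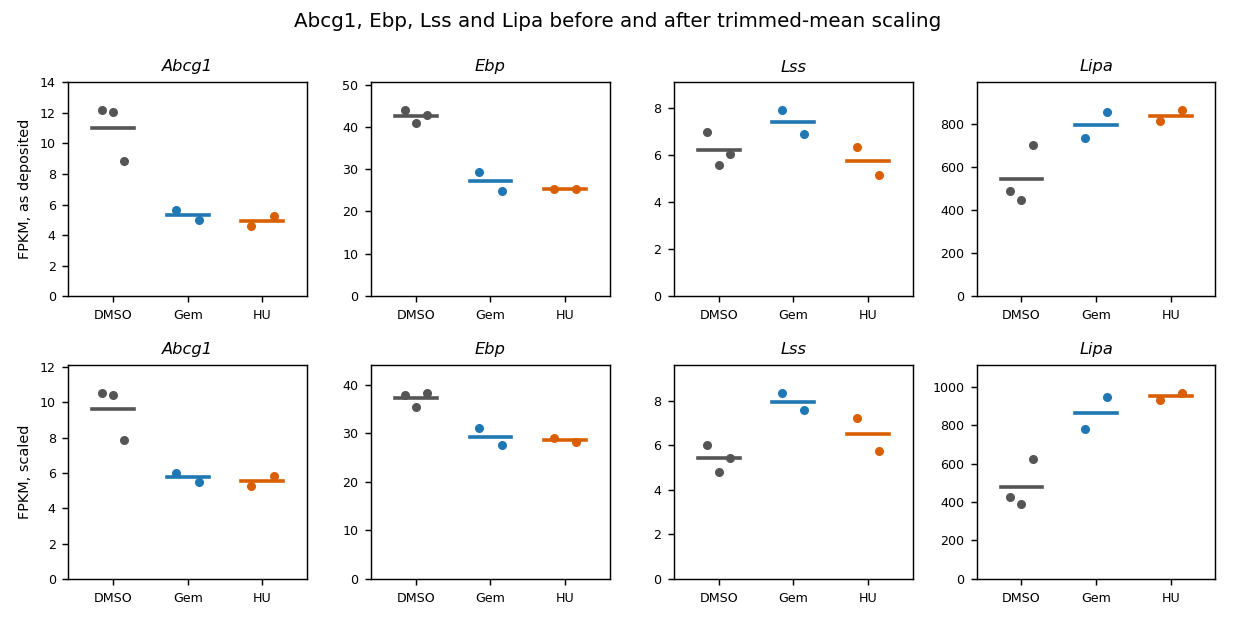
FPKM in each library as deposited (upper row) and after trimmed-mean scaling (lower row), all axes from 0, for Abcg1, Ebp, Lss and the lysosomal lipase gene Lipa. Abcg1 and Ebp stay lower in every drug library on both scales, Lipa stays higher, and Lss overlaps DMSO in the upper row and lies above it in Gem in the lower row.

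Gem and HU were compared directly, since both share the DMSO libraries. As deposited 0.0793% of tested genes were lower and 0.0216% higher in Gem than in HU, and after scaling 0.108% and 0.0216%. None of the 29 members was called by limma on either scale; at an unadjusted p below 0.05, Soat1 was higher in Gem as deposited (0.20, SE 0.083, limma adjusted p = 0.456) and Dhcr7 lower after scaling (-0.29, SE 0.11, limma adjusted p = 0.450). Soat1 in HU lay below both Gem libraries, and Dhcr7 in HU above both. The member differences as deposited ran from -0.23 to 0.32, with a median of 0.0050 against 0.056 for all tested genes. The genes that were called in 1 drug only, such as Msmo1, Mylip and Dhcr7, are therefore not shown to differ between the drugs.

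Neighbouring pathways were read from lists of genes outside the 30. The 16 tested sterol handling genes held 4 that fell in Gem as deposited, and in HU 5 that fell and 1 that rose. Over all tested genes 23.2% fell in Gem, and in HU 35.5% fell and 4.46% rose. After scaling 0 passed in Gem (0 lower and 1 higher at limma's unadjusted p below 0.05). In HU 2 rose, against 4.77% of all tested genes. Lipa, the lysosomal lipase that frees cholesterol from imported lipoprotein esters, was at 490.77, 448.96 and 701.74 FPKM in DMSO, 737.06 and 857.89 in Gem and 814.49 and 865.7 in HU. Its drug libraries all lay above DMSO, with DMSO 3 nearest to them, and it rose in HU (0.64, limma adjusted p = 0.0273; scaled 1.02, limma adjusted p = 0.0226). In Gem it missed the threshold (0.57, limma adjusted p = 0.0590; scaled 0.87, limma adjusted p = 0.0930). The deposited HU call was lost without DMSO 1, DMSO 2, HU 1 or HU 2 (limma adjusted p of up to 0.115), and the scaled one without the same libraries. Among the monocyte and macrophage markers Lyz2 was also higher in every drug library. As deposited 9 of the 10 markers had a negative difference in Gem and 8 in HU, and after scaling 3 and 4. The part of these cells in the Lipa result was not tested.

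Other sterol handling genes moved by less. Npc2, which hands lysosomal cholesterol onwards, was at 173.92, 174.11 and 169.07 FPKM in DMSO, 146.4 and 143.77 in Gem and 124.35 and 129.03 in HU, and fell in both as deposited (-0.25 and -0.44). Its scaled values were 0.057 and -0.070, which did not pass. The endocytic receptor gene Lrp1 was at 20.34, 19.53 and 18.73 FPKM in DMSO, 14.76 and 13.87 in Gem and 19.57 and 19.98 in HU. It fell in Gem as deposited (-0.42, limma adjusted p = 0.0146; lost without DMSO 1 or Gem 2) and rose in HU after scaling only (0.37, limma adjusted p = 0.0283; called in 1 of 7 fits with a library left out, that without Gem 2). Lpcat3, a phospholipid acyltransferase, fell in HU as deposited to 70.0% of the DMSO mean.

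Among SREBP processing genes, 1 of 11 fell in Gem and 3 in HU as deposited, against 23.2% and 35.5% of all tested genes. After scaling 1, Sar1b, fell in HU, where 5.14% of all tested genes fell. Sar1b, a GTPase of the COPII coat that moves cargo out of the endoplasmic reticulum, was at 77.35, 73.64 and 78.93 FPKM in DMSO, 53.4 and 50.77 in Gem and 42.62 and 47.3 in HU. All drug libraries were below DMSO, by 0.55 and 0.76 on the log2 scale (limma adjusted p of 0.00699 and 0.00108), and the scaled HU value was -0.39 (limma adjusted p = 0.0221, lost without DMSO 1, HU 1 or HU 2). Erlin1 and Faf2, which act in turnover of endoplasmic reticulum proteins, stood at 73.4% and 76.9% of the DMSO mean in HU as deposited and fell there.

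Of 4 tested sterol synthesis genes outside the 30, 3 fell in each drug as deposited, against 23.2% of all tested genes in Gem and 35.5% in HU. After scaling 0 passed (1 in Gem and 1 in HU were lower at an unadjusted p below 0.05 by limma). Erg28, a scaffold of the C4 demethylation enzymes, was at 59.83, 52.36 and 59.56 FPKM in DMSO, 42.13 and 40.3 in Gem and 36.88 and 35.87 in HU. Cyb5r3, which feeds electrons to the sterol oxidases, was at 72.88, 69.39 and 71.5 FPKM in DMSO, 51.05 and 45.67 in Gem and 56.46 and 54.72 in HU. Lbr, a C14 reductase of the nuclear envelope, was at 104.65, 101.11 and 97.95 FPKM in DMSO, 82.05 and 78.73 in Gem and 70.35 and 73.73 in HU. For all 3 genes the drug libraries lay below every DMSO library as deposited, as for 50.4% of all tested genes in Gem and 53.9% in HU. On scaled values Cyb5r3 in HU overlapped DMSO, while the other drug groups stayed below it.

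The 11 tested fatty acid synthesis genes held 2 that fell in Gem and 5 in HU as deposited, and the 11 isoprenoid branch genes 1 and 8. Over all tested genes 23.2% fell in Gem and 35.5% in HU. After scaling none of either list passed in Gem, and Fasn alone rose in HU (limma; at an unadjusted p below 0.05 the isoprenoid list held 1 lower and 1 higher in each drug, and fatty acid genes 0 in Gem). Coq2, a gene of coenzyme Q synthesis, was at 32.51, 27.43 and 25.35 FPKM in DMSO, 18.8 and 17.79 in Gem and 18.58 and 16.6 in HU, and fell in both as deposited (-0.60 and -0.66). Acly, the source of cytosolic acetyl-CoA, was at 59.62, 66.75 and 64.6 FPKM in DMSO, 48.36 and 49.22 in Gem and 45.9 and 49.87 in HU. It fell in both as deposited (-0.38 and -0.40), and the fatty acid elongase gene Elovl5 (21.2 against 30.3 FPKM), the desaturase gene Fads2 (69.3% of DMSO) and the prenyl chain genes Ggps1 (73.4%) and Dhdds (78.6%) fell in HU. Fasn, fatty acid synthase, was at 21.41, 15.83 and 19.5 FPKM in DMSO, 19.13 and 16.58 in Gem and 21.65 and 27.02 in HU. The HU libraries lay just above DMSO; the change was 0.35 as deposited (limma adjusted p = 0.107) and 0.71 after scaling (limma adjusted p = 0.0280), and that call was lost without DMSO 1, DMSO 2, HU 1 or HU 2.

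The deposited-scale calls of these wider lists depended on libraries as those of the members did. Each named Gem call was lost without Gem 2. In HU, Npc2, Sar1b, Erg28, Lbr, Elovl5 and Coq2 kept the call in all 7 fits with a library left out, and Lpcat3, Erlin1, Faf2, Acly, Fads2, Ggps1 and Dhdds lost it without HU 1 and Cyb5r3 without HU 2.

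The FPKM values are given per gene, and the annotation behind them is not given. Positions and exon overlaps printed here are those of GENCODE M21 on GRCm38. Fdps lies on chromosome 3, 89093588 to 89101959, Ebp on chromosome X, 8185329 to 8193512, Abcg1 on chromosome 17, 31057675 to 31117988, and Lss on chromosome 10, 76531588 to 76557138. Exons of 10 members overlap those of another gene, 7 of them on the opposite strand, and the labels do not say that reads carry strand, so reads of such pairs cannot be told apart. Ebp and Abcg1 are not among these 10.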

How the data were processed

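RNA of 7 libraries (DMSO 3, Gem 2, HU 2) was read from 1 gene table. Its FPKM values were deposited by the authors, and the depth of each library is not in them, so no interval for counting error can be given. Per the labels' protocols, RNA was isolated with a miRNeasy kit, amplified by a Geo-seq protocol and made into libraries with a TruePrep kit. Tools listed in the submitters' processing notes, with no role or order, are Cufflinks 2.1.1, Bowtie 0.12.9, DESeq2 and HTSeq, and the listed build is mm10; which annotation was used is not given in the sources used here. Both the 30 members and the wider lists were chosen with earlier results of these data known.

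From the deposited FPKM, log2(FPKM + 1) of genes with at least 1 FPKM in at least 2 libraries (13865 of 52224) was fitted with limma 3.58.1 in R 4.3.3: the 3 groups in 1 model, a trend of variance with level, two-sided tests with 4 residual degrees of freedom, Benjamini-Hochberg adjustment over all tested genes and a call at adjusted p below 0.05. Trimmed-mean scaling took 1 factor per library from gene ratios (30% trimmed at each end) and levels (5%). The fit was tested on simulated data. All members are named; of the wider lists, at most 3 called genes per list and direction, by smallest p against DMSO on either scale. Alternatives were pseudocount 0.1, no filter, rescaling to the same sum, trimmed-mean scaling, no trend, a replicate block and each library left out; the last 2 combined with scaling were chosen after seeing the data. Figures were drawn with matplotlib 3.10.9.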

Additional observations from a re-analysis of the deposited data

How the results depend on the processing

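Over the whole table, Gem called 3421 genes as deposited, 1509 with no filter, 432 after rescaling to the same sum, 128 after trimmed-mean scaling and 2132 with no trend. HU called 5541, then 1480 with the same sum and 1374 with trimmed-mean scaling. Gem against HU called 14, and 1 with pseudocount 0.1, 2 with no filter and 64 with no trend. Leaving out a library gave 13 to 3381 for Gem, 3095 to 5204 for HU and 1 to 11 for Gem against HU. On scaled values, leaving out DMSO 1, 2, 3, Gem 1, 2 or HU 1, 2 gave 7, 37, 301, 8, 10, 96 and 88 for Gem and 255, 557, 1328, 1072, 1068, 206 and 110 for HU; for Gem against HU it gave 8 without DMSO 1, 3 without Gem 2 or HU 1 and 1 without HU 2. Of the members, 15 fell in Gem as deposited, and 5 with no filter, 1 with the same sum, 0 with trimmed-mean scaling, 6 with no trend and 0 to 14 with a library left out; on scaled values 1 was called without DMSO 3 and 0 without any other library. In HU 17 fell, and 2 with the same sum, 2 with trimmed-mean scaling and 6 to 16 with a library left out; on scaled values 1 was called without DMSO 3, Gem 1 or Gem 2 and 0 without any other. No setting called a member higher in Gem or HU, or different between them. Where a drug kept 1 library, it was assumed to vary like the other groups. The cause of these shifts was not tested.

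Whether replicate numbers pair the samples could not be decided. Deviations of same-numbered libraries from their group means correlated at -0.0736 to 0.0549. With 2 libraries a drug, the deviations within a drug mirror each other, so these values cannot settle it. With the replicate block, 8 members fell in Gem and 13 in HU, and 2 genes of the table differed between Gem and HU; on scaled values the block gave 0 and 1 members, and 68, 829 and 2 genes for Gem, HU and Gem against HU.

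Some log2 fold changes turned positive, none of them past the threshold. In Gem, after trimmed-mean scaling: Cyp51 0.076, Lpcat3 0.0087, Dhdds 0.12, Npc2 0.057, Fdft1 0.048, Ggps1 0.013, Sqle 0.15, Stard4 0.058, Fasn 0.22, Soat1 0.18, Msmo1 0.0058, Elovl5 0.025, Insig1 0.026 and Hmgcs1 0.026. With the same sum, Dhdds was at 0.024, Sqle 0.047, Fasn 0.12 and Soat1 0.074, and Fasn was at 0.018 without DMSO 1 and 0.026 without Gem 2 (range -0.19 to 0.026 with a library left out). In HU, after trimmed-mean scaling: Cyp51 0.14, Nr1h3 0.12, Mvd 0.090, Dhdds 0.025, Cyb5r3 0.016, Srebf1 0.046, Srebf2 0.059, Acat2 0.027, Stard4 0.27, Soat1 0.043, Hsd17b7 0.24, Pmvk 0.0042, Scap 0.16, Lss 0.22, Mylip 0.010, Dhcr7 0.22 and Hmgcs1 0.0029. With the same sum: Cyp51 0.11, Nr1h3 0.095, Mvd 0.060, Srebf1 0.017, Srebf2 0.029, Stard4 0.24, Soat1 0.012, Hsd17b7 0.21, Scap 0.13, Lss 0.19 and Dhcr7 0.19. Hsd17b7 was at 0.046 without DMSO 3 (range -0.19 to 0.046) and with the replicate block, Lss at 0.027 without HU 2 (range -0.23 to 0.027), and Lrp1 turned to -0.011 without DMSO 3 and with the block. With 4 residual degrees of freedom, small changes cannot be resolved, and depth is unknown.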
